A study of Mus musculus with 24 samples.

Results

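mmu-miR-193, mmu-miR-193b, mmu-miR-365 and mmu-miR-378, written here without the species prefix, are 4 microRNAs (miRNAs) known from studies of fat cells and of energy metabolism. They were taken by name from an nCounter panel, in which barcoded probes are counted one by one, and each was found once among its 566 mouse miRNA probes (618 rows with controls). No other probe of the same miRNA genes was on the panel. They were chosen by their measured level in normal mammary gland (NMG), an organ embedded in fat, with these data in view, so every value that sets NMG against other samples describes the choice and is given without a test.

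The 24 samples came from a mouse model of triple negative breast cancer. JygMC(A) mammary carcinoma cells with GFP and luciferase reporters had been injected into the mammary fat pad of female Balb/C nude mice (BalbC in the labels). Laser-captured tissue was taken from carcinoma areas (n = 5) and spindle-like EMT-like areas (n = 7) of the primary tumors (PT), from lung metastases (n = 4), from NMG (n = 2) and from normal lung parenchyma (n = 2). The same cells were grown as monolayer (n = 2) and as third-generation 3D-spheres on ultra-low adherent plates (n = 2). The tumors all derive from 1 cell line in an immunodeficient host. Several tumor areas and metastases share an animal, 1 sample each of carcinoma, EMT-like area and metastasis carries a label that names 3 animals, and NMG and normal lung carry the same pair of numbers. The labels do not say how separate the cultures were, and p-values measure only the spread between these samples.

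miRNAs are short RNAs that guide repressor proteins to messenger RNAs, mainly through bases 2 to 8, the seed. miR-193b and miR-365 are cut from neighbouring hairpins, and the pair is known to rise when brown fat cells form under the regulator Prdm16. A second, related pair holds miR-193 (miR-193a in current naming) and another copy of miR-365. miR-378 lies within an intron of Ppargc1b, a coactivator of mitochondrial genes, and is abundant in heart and skeletal muscle as well as in fat, so neither it nor any other miRNA of the panel marks fat cells alone.

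In RefSeq (mouse GRCm38.p6) 3 of the 4 members had a mature sequence, and none is shown for miR-378. They are printed 5′ to 3′ with the seed in capitals, because 2 of them differ so little that their probes may share signal. The panel's older names were taken as the 3′ arms. miR-193 lies at chr11:79712009-79712030 and miR-193b at chr16:13449570-13449591, both on the plus strand. miR-365 is encoded at chr11:79726467-79726488, 14365 bases from the miR-193 gene, and at chr16:13453895-13453916, 4238 bases from the miR-193b gene, also on the plus strand. The stretch that holds the chromosome 16 pair overlaps the annotated genes Gm32817 and Gm53058, and that of the chromosome 11 pair overlaps no other annotated gene.
miR-193: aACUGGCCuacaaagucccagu
miR-193b: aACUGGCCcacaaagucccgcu
miR-365: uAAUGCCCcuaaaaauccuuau
miR-193 and miR-193b share their seed and 19 of 22 bases, with the substitutions U9C, A20G and G21C from miR-193 to miR-193b, counted from 1 at the 5′ end. Signal of one could thus reach the probe of the other, and this was not tested. Both copies of miR-365 give the same mature RNA, so its probe could not tell them apart.

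A probe counted as detected in a sample when it exceeded a limit set 2 SD above the mean of its lane's 6 negative controls, which lay between 4 and 21.4 counts. The summed mouse miRNA counts were 62583 to 184501 in tumor areas and metastases, 26420 to 46507 in cultures, and 560247 and 525697 in the NMG samples. Normal lung had 590022 and 2335745, where replicate 2 stood far above replicate 1. Counts were therefore scaled between lanes with the trimmed mean of M-values (TMM) and are called normalized counts. After scaling, the detection limit was 3.52 and 3.84 in NMG, 9.76 to 24.6 in PT, 5.19 to 34.7 in metastases and 30.1 to 36.8 in cultures. Differences are on the scale of log2(normalized count + 1), and positive means higher in the group named first.

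The members did not share a single pattern. miR-193, miR-365 and miR-378 were higher in both NMG samples than in all 12 PT samples, whereas miR-193b had much the same level in NMG and tumors and was low in culture instead. Samples of NMG and PT did not overlap, with NMG higher, for 22.3% of the 583 probes analysed and for 3 of the 4 members. By the size of the NMG to PT difference, miR-193 ranked 5th, miR-378 39th, miR-365 40th and miR-193b 309th of 583. The rank of miR-193 takes PT counts under the limit as they stand (difference 5.08). The detection limits secure a difference of only 1.35, less than the 3.05 of miR-378 and the 2.99 of miR-365. These ranks are part of what chose the members. In bulk samples of this kind, fewer cells of a type and less RNA per cell cannot be told apart.

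**Figure D1:**
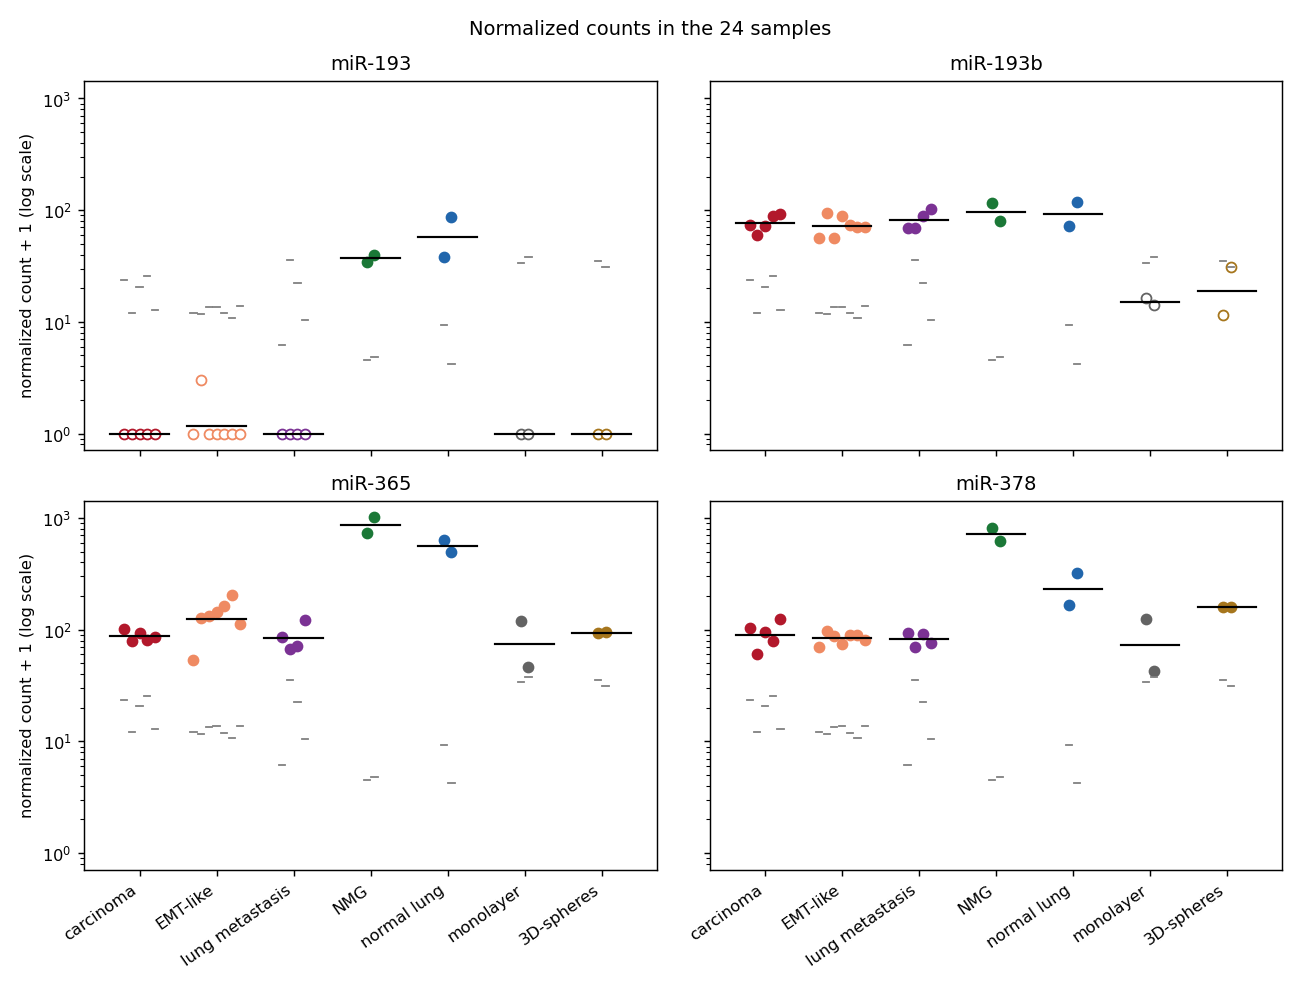
Normalized count + 1 of each member (log scale) in the 24 samples by group. Filled points lie above the detection limit of their lane (grey ticks), open points below it, and black lines give the mean on the log2 scale. miR-193 was above the limit in NMG and normal lung alone, and miR-365 and miR-378 reached 1013 and 815 in NMG.

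The deposited count of miR-193 was 82 and 105 for NMG, and 66 and 524 for normal lung. In the tumors it ran from -15 to 2 with a median of -4, in metastases from -9 to -4 and in cultures from -13 to -8, which are background-subtracted counts with no signal. After scaling the NMG samples had 33.6 and 38.9 and the normal lung samples 37.3 and 86.1, so the normal tissues were the only ones with a measured level. Against the limits of the tumor lanes, NMG was at least 2.55-fold higher than PT (at least 2.05-fold than carcinoma and at least 2.98-fold than EMT-like areas). The limit of lung metastasis replicate 2 was 34.7 and those of the cultures were 30.1 to 36.8, so a level as in NMG would have been at the edge of detection in these lanes. NMG and normal lung overlapped for miR-193, and normal lung held the higher value.

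miR-193b, close to identical to miR-193 in sequence, was detected in all 12 PT samples and all 4 metastases. Its normalized count was 114 and 78.5 for NMG against 71.8 and 117 for normal lung. Carcinoma had 76.4 ± 13.4 (SD, n = 5), EMT-like areas 72.0 ± 14.6 (SD, n = 7) and metastases 81.7 ± 16.0 (SD, n = 4). These groups overlapped throughout, and NMG exceeded PT by only 0.38 (standard error 0.32), less than the median difference of 0.44 over all 583 probes. The direction of this small difference turned with the scaling, to -0.66 with the 100 most abundant miRNAs and to -0.17 with the miRNA total, and with no scaling it was 1.73 and NMG lay above every PT sample. In the tumors the near-identical miRNAs thus differed in detection, with miR-193 in none of the PT samples and miR-193b in all of them. With TMM, miR-193b was the only member for which NMG did not stand above the tumors.

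miR-365, the partner of both, was detected in every sample. Its normalized count was 732 and 1013 for NMG, 635 and 496 for normal lung, and 114 ± 42.1 (SD, n = 12) for PT. With TMM, every normal tissue sample lay above every tumor, metastasis and culture, the highest of which was EMT-like replicate 6 at 205. With the 100 most abundant miRNAs the mean of normal lung was 156, below the 347 of the monolayer and the 393 of 3D-spheres. Under the other scalings the mean of normal lung stayed above both. The NMG to PT difference with TMM was 2.99 (standard error 0.36), or 7.96-fold. NMG lay 0.62 (standard error 0.47) above normal lung with no overlap, as did 19.2% of all probes and 2 of the 4 members. Scaled by the miRNA total this difference was 1.37, and by the 100 most abundant miRNAs 1.28, but it was 0.26 with overlap on unscaled counts and -0.75 with overlap after scaling to the mRNA controls. In order of level with TMM, NMG was followed by normal lung and then by 5 tumor and culture groups. Each of these 5 overlapped its neighbour.

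miR-378 had the largest difference of the members between NMG and normal lung. The NMG samples had 815 and 622 normalized counts, normal lung 165 and 320, 3D-spheres 160.1 and 157, and the monolayer 124 and 41.5. Carcinoma had 91.5 ± 24.1 (SD, n = 5), EMT-like areas 83.5 ± 9.50 (SD, n = 7) and metastases 82.1 ± 11.7 (SD, n = 4). With TMM, NMG, normal lung and 3D-spheres followed each other in that order without overlap, and the remaining groups overlapped. The place of 3D-spheres changed with the scaling. By the miRNA total their mean was 289.3, between the 477.4 of NMG and the 94.07 of normal lung. By the 100 most abundant miRNAs it was 670.8, above the 311.9 of NMG and the 65.54 of normal lung. Normal lung kept the higher mean on unscaled counts (1120 against 74.5) and when scaled to the mRNA controls (1376 against 131.2). NMG with TMM exceeded PT by 3.05 (standard error 0.32), or 8.25-fold, and normal lung by 1.63 (standard error 0.41), or 3.09-fold. Scaled by the miRNA total the latter was 2.38, and by the 100 most abundant miRNAs 2.28, but it was 1.27 on unscaled counts and 0.27 after scaling to the mRNA controls, where the tissues overlapped in both cases. In the difference between NMG and normal lung miR-378 ranked 42nd of 583 probes, miR-365 149th, miR-193b 238th and miR-193 379th.

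**Figure D2:**
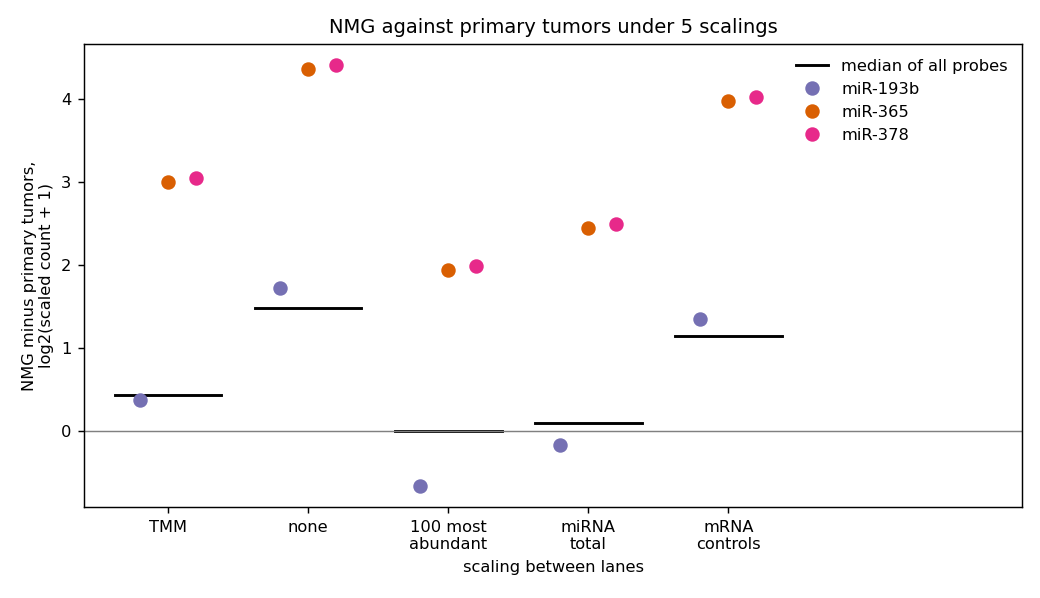
Difference between NMG and PT in log2(scaled count + 1) for miR-193b, miR-365 and miR-378 (points) and the median of all probes (bars) under 5 ways of scaling the lanes. miR-193 is left out because PT gives it only a bound. miR-365 and miR-378 stayed above the median, between 1.94 and 4.40, and miR-193b turned sign, from 1.73 to -0.66.

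NMG lanes had far higher totals than tumor lanes, and the size of these differences followed the scaling. For miR-365 the NMG to PT difference was 4.35 with no scaling, 3.97 with the 4 mRNA control probes, 2.44 with the miRNA total and 1.94 with the 100 most abundant miRNAs. The median of all probes was 1.49, 1.15, 0.10 and 0.00 in the same order. For miR-378 the difference was 4.40, 4.02, 2.49 and 1.99. NMG stayed above PT without overlap for both miRNAs under each of the 5 scalings. For miR-193 every PT sample was under the limit and at or near 0, so a lack of overlap there says little. Its bound fell to 0.33 with the 100 most abundant miRNAs. Against cultures the direction of miR-193b, miR-365 and miR-378 held under 4 of the 5 scalings. With TMM these 3 were higher in NMG without overlap, where 39.6% of all probes were so against the monolayer and 43.6% against 3D-spheres, and miR-365 and miR-378 exceeded the 3D-spheres by 3.19 and 2.16. With the 100 most abundant miRNAs those differences were -0.06 and -1.10, and that of miR-193b was -0.84. For miR-193 the limits of the culture lanes reached its level in NMG, so no order can be given.

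Markers of other cells moved with NMG too. The summed normalized count of 7 striated muscle miRNAs (miR-1, miR-133a, miR-133b, miR-206, miR-208a, miR-208b and miR-499) was 1027 in NMG replicate 1 and 50.7 in replicate 2, against 10.5 to 99.8 in PT. miR-1 itself was 829.5 and 30.7 in NMG and at most 2.71 in PT, and miR-208b and miR-499 were under the limit in both NMG samples. miR-206 did not exceed PT, at 16.4 and 4.81 in NMG against 8.60 to 49.9. The NMG samples thus differed 20.2-fold in the sum of muscle miRNAs, most of which was miR-1 in both. In the same samples miR-378 differed 1.31-fold, miR-193b 1.46-fold, and miR-365 and miR-193 were higher, by 1.38-fold and 1.16-fold, in the sample with less muscle signal. In normal lung the muscle sum was 807 and 1798, and miR-378, miR-193 and miR-193b were higher, 1.94-fold, 2.31-fold and 1.63-fold, in the sample with more of it, while miR-365 was 1.28-fold higher in the other. The part of muscle in the NMG to tumor difference was not tested beyond these values.

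All other marker lists but the epithelial one exceeded the range of PT in both NMG samples. Erythroid miRNAs (miR-144, miR-451 and miR-486) summed to 8074.5 and 8482 against 83.7 to 306 in PT. Endothelial miR-126-3p and miR-126-5p summed to 17554 and 10937 against 1065 to 2599. Smooth muscle miR-143 and miR-145 summed to 6006 and 7568 against 763 to 1681, and 3 fibroblast miRNAs (miR-199a-3p, miR-199a-5p and miR-214) to 9076 and 8618 against 880 to 2828. Immune miRNAs (miR-142-3p, miR-142-5p, miR-150, miR-155 and miR-223) summed to 5689 and 2620 against 569 to 1237.5. Within this list miR-155 went the other way, at 117 ± 14.9 in NMG against 369 ± 43.5 in PT (SD). The 7 epithelial miRNAs (miR-141, miR-200a, miR-200b, miR-200c, miR-203, miR-205 and miR-429), at 2909 and 4048, lay within the range of PT (61.4 to 5355). The part of these cells in the members' levels was not tested. The panel holds no miRNA particular to fat cells, and the share of fat in NMG was not measured.

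**Figure D3:**
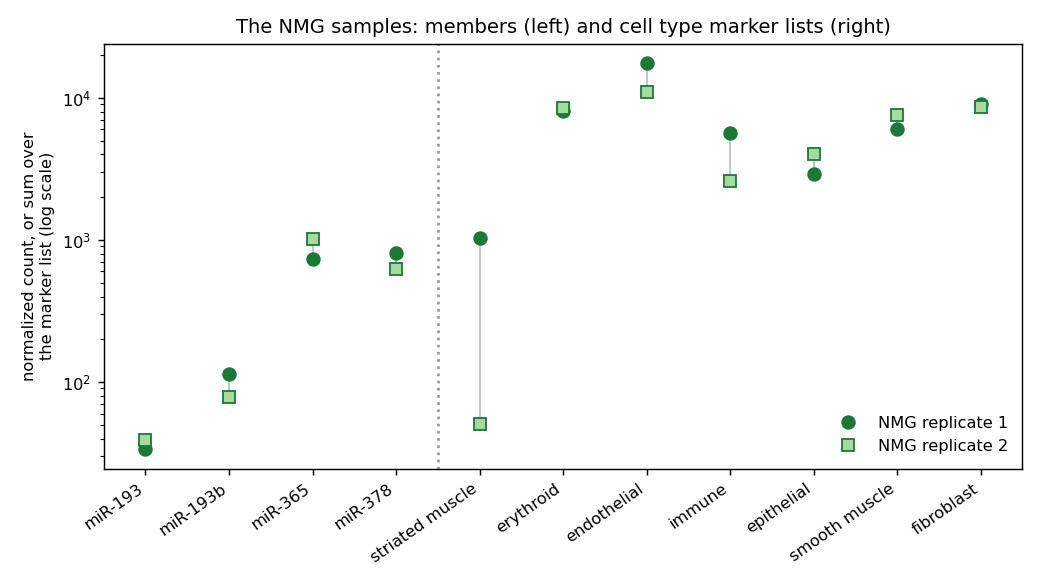
Normalized count of the members (left of the dotted line) and summed normalized count of 7 cell type marker lists (right) in NMG replicates 1 and 2, log scale. The striated muscle sum was 1027 in replicate 1 and 50.7 in replicate 2, and each member differed by at most 1.46-fold. The part of muscle in the members' levels was not tested.

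Whether the members differed among tumor sites was tested with limma in 1 fit of all samples, with Benjamini-Hochberg adjustment over 583 probes. Between carcinoma and EMT-like areas 0 of 4 members were called, where 0.172% of all probes were, and 0 of 4 had an unadjusted p under 0.05, where 13.9% of all probes had. miR-365 came nearest. It was 100.4, 77.8, 92.6, 79.9 and 85.5 in the carcinoma areas, and 53.0 at the lowest, 130 in the median and 205 at the highest in EMT-like areas. All but 1 of the 7 EMT-like samples lay above all 5 carcinoma samples, and the exception, EMT-like replicate 1, lay below them all. The difference was -0.51 (standard error 0.28, limma adjusted p = 0.417), with a 95% interval from -1.09 to 0.06. miR-193b and miR-378 differed by 0.09 and 0.10 (95% intervals -0.42 to 0.60 and -0.41 to 0.60), and miR-193 was under the limit in both areas.

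The animals fall into a series labelled with letters and one labelled with numbers. In the numbered series miR-365 was 79.9 and 85.5 in carcinoma and 112 to 205 in the 5 EMT-like areas, which all lay above (difference -0.83). In the lettered series it was 77.8 to 100.4 in 3 carcinoma areas and 53.0 and 125 in 2 EMT-like areas (difference 0.14). The difference between the series was -0.96 and was not called (limma adjusted p = 0.852). Of 4 animal labels with both areas, 3 had less miR-365 in carcinoma (-0.68, -0.70 and -0.75), and the label of 3 animals had more (0.91). For miR-378 the same 4 labels gave differences from -0.67 to 0.73, with 2 of each sign.

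**Figure D4:**
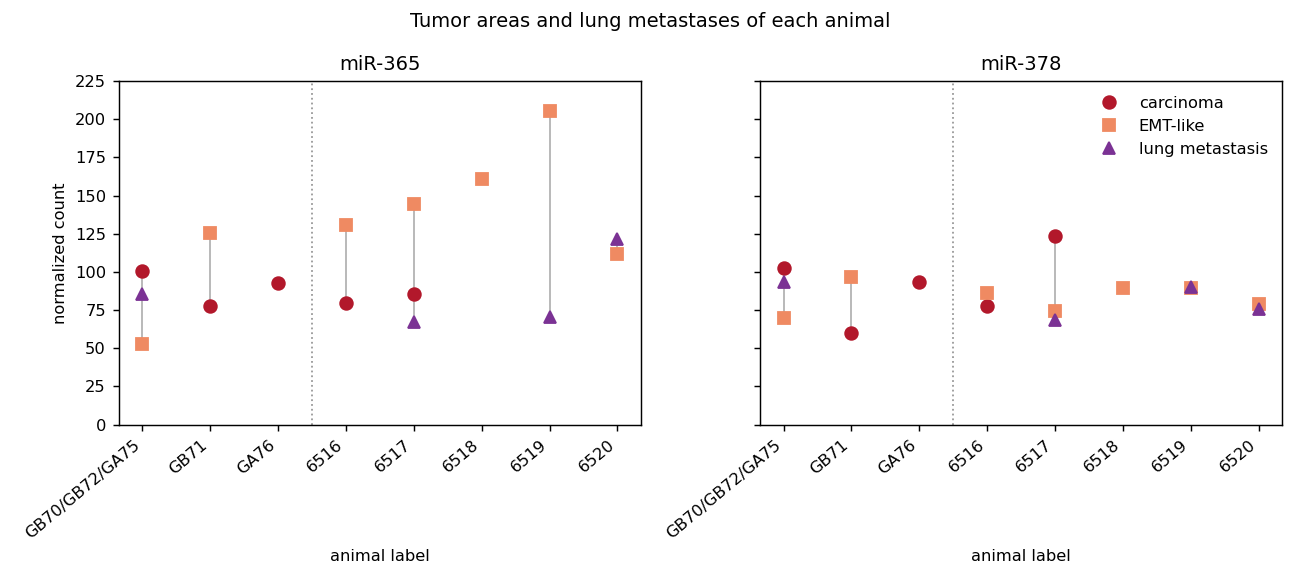
Normalized count of miR-365 and miR-378 in carcinoma (circles), EMT-like areas (squares) and lung metastases (triangles) by animal label, with labels with letters to the left of the dotted line and numbers to its right. All 5 EMT-like areas of numbered animals lay above both carcinoma areas for miR-365 (112 to 205 against 79.9 and 85.5), and miR-378 shows no such split.

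No member was called different between lung metastases and PT. Of all probes 3.26% were, and 0 of the 4 members had an unadjusted p under 0.05, where 15.1% of all probes had. The limma difference was 0.15 (95% interval -0.35 to 0.65) for miR-193b, -0.35 (-0.92 to 0.22) for miR-365 and -0.07 (-0.56 to 0.43) for miR-378. Within the numbered series the differences were 0.17, -0.58 and -0.16, and within the lettered series, with 1 metastasis, -0.0048, -0.01 and 0.17.

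Among the tumor samples, miR-378 and miR-193b varied less than most probes. Over the 16 PT and metastasis samples, the coefficient of variation was 17.9% for miR-378 and 18.7% for miR-193b, the 9th and 11th lowest of 114 probes detected in all 16, whose median was 33.8%. For miR-365 it was 37.2%, with a 3.88-fold span from the lowest to the highest sample. miR-378 and miR-193b spanned 2.05-fold and 1.85-fold.

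Compared with normal lung parenchyma, which carries other numbers than the tumor-bearing animals, metastases held less of 3 members. miR-193, miR-365 and miR-378 were called lower in metastases than in normal lung, where 41.3% of all probes were called lower and 48.5% in either direction. miR-365 was 85.6, 66.9, 70.3 and 122 in metastases, all below the 635 and 496 of normal lung, a difference of -2.73 (standard error 0.41, limma adjusted p = 1.31e-05). miR-378 was 93.4, 68.8, 90.4 and 75.8 against 165 and 320, a difference of -1.49 (standard error 0.36, limma adjusted p = 0.00207). miR-193 was under the limit in all 4 metastases and at least 3.83-fold lower. Its test took these metastases as 0 (difference -5.85, limma adjusted p = 3.90e-10), and the bound itself was not tested. With TMM miR-193b was not called (-0.18, 95% interval -0.93 to 0.57, limma adjusted p = 0.727).

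The call of miR-365 held under all 5 scalings, and its difference was -2.55 and -2.91 without normal lung replicate 1 and 2. For miR-193 every metastasis stayed at 0 whatever the scaling, so its unchanged call says nothing about levels under the limit. Its mean in normal lung was 61.7 with TMM, 23.8 when scaled by the miRNA total and 16.6 by the 100 most abundant. The limit of lung metastasis replicate 2 was 34.7 with TMM. No bound was given for miR-193 under the latter scalings, so no order is secured there. The call of miR-378 did not hold under all scalings. Without normal lung replicate 2, the lane with the high total, its difference was -1.01 (limma adjusted p = 0.0817), with the miRNA total -0.12 and with the 100 most abundant miRNAs 0.19. Those same scalings called miR-193b higher in metastases (1.17 and 1.47, limma adjusted p = 0.00267 and 0.00259), and they moved the median of all probes by 0.68 and 0.81. No scaling and the mRNA controls moved that median by -1.50 and -1.78 and called miR-193b lower (-2.42 and -2.78, limma adjusted p = 0.000205 and 0.000492), as did the higher background (-1.02, limma adjusted p = 0.0411). Metastases also had lower sums of cell type marker miRNAs than normal lung. The endothelial sum was 801 to 3068 against 61825 and 64941, and the striated muscle sum 19.1 to 41.5 against 807 and 1798. Single miRNAs did not all follow. Of the 7 epithelial miRNAs 1 was called lower, and of the 5 immune miRNAs 3 were lower and 2 higher (41.3% and 7.20% of all probes). The part of these cells in the members' difference was not tested.

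In culture the members parted. miR-193b was 15.3 and 13.1 in the monolayer and 10.6 and 29.9 in 3D-spheres, under the limit in all 4 lanes, and all 12 PT samples lay above (54.9 to 93.6). It was at least 2.14-fold lower in cultures than in PT. The test used the counts under the limit as they stand (difference -2.12, limma adjusted p = 2.71e-07), and the bound itself was not tested. miR-193b was the 1 member called, where 21.6% of all probes were called lower and 30.2% in either direction. miR-365, its cluster partner, was 118 and 45.8 in the monolayer and 91.5 and 95.02 in 3D-spheres, of which only monolayer replicate 2 lay outside the range of PT (53.0 to 205), with a difference of -0.37 (95% interval -0.94 to 0.20, limma adjusted p = 0.374). For miR-378 the difference was 0.32 (-0.18 to 0.82, limma adjusted p = 0.373). The endothelial, erythroid and fibroblast marker miRNAs were all under the limit in culture, and their part in the difference of miR-193b was not tested. Scaling by the 100 most abundant miRNAs took the call of miR-193b away (0.08, limma adjusted p = 0.907) and put miR-365 and miR-378 higher in culture than in PT, by 1.90 and 2.59, so the order of culture and tumor levels changed with the scaling. Under it 37.7% of all probes were called higher in culture and 10.6% lower, against 8.58% and 21.6% with TMM. On simulated data the calls of this comparison held more unchanged probes than the nominal share.

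Between 3D-spheres and monolayer 0 of 4 members were called (4.63% of all probes were), and 1, miR-378, had an unadjusted p under 0.05, as had 14.8% of all probes. Its spheres, 160.1 and 157, lay above the monolayer samples, 124 and 41.5, as did those of 8.23% of all probes, with a difference of 1.13 (95% interval 0.27 to 1.99, limma adjusted p = 0.144). Without monolayer replicate 1 the difference was 1.91 and was called (limma adjusted p = 0.00417), and without monolayer replicate 2 it was 0.35, so it rests on how far apart the monolayer samples lay. The deposited counts behind it were 81 and 19 for the monolayer, and 91 and 58 for spheres. miR-365 differed by 0.34 (95% interval -0.65 to 1.32), and miR-193 and miR-193b were under the limit in both.

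**Figure D5:**
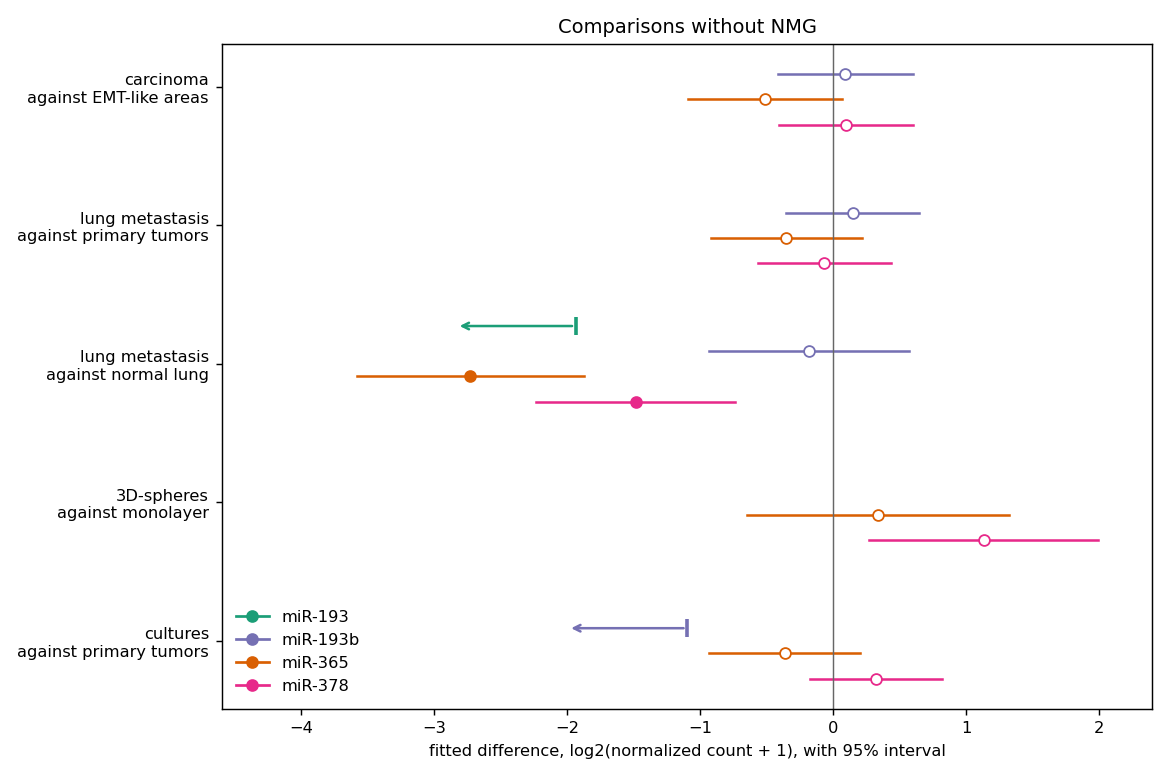
Fitted differences of the members in log2(normalized count + 1) for the 5 comparisons without NMG, with 95% intervals. Filled points were called at an adjusted p under 0.05, open points were not, and arrows start at the smallest change that the detection limit allows (at least 3.83-fold for miR-193 and at least 2.14-fold for miR-193b). Members under the limit in both groups are left out, and the called members all lie below 0.

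Likeness was measured as Pearson's r over the 7 group means of log2(normalized count + 1), among 349 probes detected in every sample of at least 1 group. miR-193 and miR-365 were close to each other (r = 0.97), miR-365 and miR-378 had 0.91, and miR-193b had 0.51 with miR-193, 0.55 with miR-365 and 0.35 with miR-378. The probes most like miR-193 were miR-219 (r = 0.999), miR-500 (0.997) and miR-503 (0.996), each with a mean of at most 0.698 outside the normal tissues. For miR-365 they were miR-411 (r = 0.997), miR-345-3p (0.99) and miR-503 (0.98). For miR-378 they were miR-592 (0.95), miR-136 (0.94) and miR-379 (0.94), of which miR-136 had a mean of 268 in NMG, 77.3 in normal lung and 23.5 to 29.7 elsewhere. miR-193b was nearest to miR-340-5p, miR-664 and miR-19a (0.99 each), which were at or near 0 in culture. With 7 points that share lanes and scaling, these values describe the pattern and nothing more.

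Other miRNAs known to act in fat cell formation were set beside the members for context. The contrast of NMG with PT chose the members, so it is given for these miRNAs as levels only, without a p-value. The miRNAs named for it were picked by passing an adjusted p under 0.05 in that same contrast, so their levels describe the pick. The median difference was 1.76 over 19 miRNAs linked to more fat cell formation and -0.03 over 16 linked to less, and 0.44 over all probes. Largest in the first list were miR-143 (1836 ± 723 in NMG against 129 ± 54.9 in PT) and miR-196a (322 ± 55.4 against 28.8 ± 15.3), while miR-210, a hypoxia miRNA, was at 79.6 ± 6.84 against 149.6 ± 37.99. In the second list miR-130a was at 1431 ± 212 against 532 ± 120.4, miR-130b at 35.9 ± 13.04 against 131 ± 33.8, and miR-155 at 117 ± 14.9 against 369 ± 43.5. miR-143 and miR-145 also stand in the smooth muscle list, miR-133a and miR-133b in the striated muscle list, miR-155 in the immune list and miR-203 in the epithelial list, so these lists are not specific to fat.

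In the other comparisons the first list moved most in cultures and in metastases against normal lung. Between carcinoma and EMT-like areas 0 of its 19 and 0 of the 16 were called. In metastases 12 of 19 were lower than in normal lung (63.2%, with 41.3% of all probes), led by miR-196a (at least 5.03-fold) and miR-143 (-4.51), and against PT 1 was higher and 2 were lower, with 0.515% and 2.74% of all probes. With the 100 most abundant miRNAs 2 were higher and 9 lower than in normal lung, where 16.3% and 21.96% of all probes were. From the second list 2 were higher and 5 lower than in normal lung with TMM, where 7.20% and 41.3% of all probes were. With the 100 most abundant miRNAs 7 of that list were higher and 1 lower. In cultures 16 of 19 were lower than in PT (84.2%, with 21.6% of all probes). Among probes with at least 20 in at least 2 samples, 129 of 323 were called lower. The counts of the first list changed with the scaling. With the 100 most abundant miRNAs 8 were lower and 4 higher, where 10.6% and 37.7% of all probes were. With the miRNA total 13 were lower and 0 higher, where 15.95% and 24.2% of all probes were. Largest was miR-148a, at 22.3 ± 44.5 in culture against 2044 ± 1134 in PT, followed by miR-143 at 25.0 ± 48.8 against 129 ± 54.9, both above the limit in 1 of 4 culture lanes. Of the second list 11 of 16 were lower and 2 higher (8.58% of all probes were higher), a split that turned to 2 lower and 13 higher with the 100 most abundant miRNAs. In 3D-spheres miR-30c and miR-30d were higher than in the monolayer, by 2.41 and 1.49, and 2 more of the first list, miR-26a and miR-107, were called lower with all 4 lanes under the limit, where 2.92% of all probes were called higher and 1.72% lower.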

How the data were processed

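Members and lists were chosen with earlier results of these data known. Per the labels, RNA of laser-captured tissue or cultured cells was counted with the nCounter mouse miRNA assay, and Partek is named in the submitters' processing notes. The deposited values are whole-number counts from which the authors had subtracted each lane's own negative control mean, as the values show (6 negative controls, lowest value -20). Lane totals had not been brought to a common value, and how lanes were normalized is not given in the sources used here. Negative values were set to 0. TMM factors (30% of log ratios and 5% of levels trimmed, reference carcinoma replicate 2) were kept from all 24 lanes when samples were left out. log2(normalized count + 1) of 583 probes (miRNAs above 0 in 1 or more samples) was fitted in 7 groups with limma 3.58.1 (trend, R 4.3.3), and calls needed an adjusted p under 0.05. PT was weighted by samples, and cultures equally by kind. A bound sets the group with signal against the limit of each lane of the group without it. The procedure was tested on simulated data, in which calls between cultures and PT included more unchanged probes than the nominal share.

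The probes named are the 4 members, for each the 3 probes most like it, and from each fat cell list at most 2 called with the largest difference in each direction. The list linked to more fat cell formation holds miR-103, miR-107, miR-143, miR-145, miR-148a, miR-182, miR-196a, miR-203, miR-21, miR-210, miR-26a, miR-26b, miR-30a to miR-30e, miR-335-5p and miR-455, and that linked to less holds let-7a to let-7d, miR-27a, miR-27b, miR-34a, miR-93, miR-106b, miR-130a, miR-130b, miR-133a, miR-133b, miR-138, miR-155 and miR-448. The marker lists are named with their values. Of the fibroblast list, 3 of 4 probes were on the panel. Samples of an animal pair by their labels, and their deviations from the group means correlated with a median of 0.10 (-0.31 to 0.30, 10 pairs, 196 probes). Python 3.11.15, numpy 2.4.6, pandas 2.3.3 and matplotlib 3.10.9 handled tables and figures. Alternatives were 4 other scalings, a pseudocount of 10, 2 other filters, a higher background (2 SD above the negative control mean, floored at 1), the compared groups alone, blocks, a series term and leaving out each sample. The series term could not be fitted for comparisons with normal lung or cultures.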

Additional observations from a re-analysis of the deposited data

How the results depend on the processing

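The description of NMG against PT followed the scaling. With no scaling, the 100 most abundant miRNAs, the miRNA total and the mRNA controls, the log2 difference was 2.69, 0.33, 0.82 and 2.30 for miR-193 (main value 1.35, a bound, and 4.22 with the higher background), 1.73, -0.66, -0.17 and 1.35 for miR-193b (0.38), 4.35, 1.94, 2.44 and 3.97 for miR-365 (2.99), and 4.40, 1.99, 2.49 and 4.02 for miR-378 (3.05). Leaving out single samples moved them over 1.25 to 1.45, 0.11 to 0.65, 2.76 to 3.23 and 2.85 to 3.24.

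Between cultures and PT, 0.686% of all probes were called higher and 26.8% lower with no scaling. These shares were 37.7% and 10.6% with the 100 most abundant miRNAs, and 24.2% and 15.95% with the miRNA total. The higher background called 199 of 583 higher and 118 lower. Of the 4 members 1 was called in the main fit, 2 with no scaling and 2 with the 100 most abundant miRNAs. In this comparison 3 members were called with the miRNA total and 2 with the higher background. There miR-365 turned to 1.90 and 0.64 with the 100 most abundant miRNAs and the miRNA total, miR-193b to 0.082 with the former, miR-193 to 0.41 with the higher background, and miR-378 to -0.66 with no scaling, -0.16 with the mRNA controls, -0.68 with the higher background and over -0.068 to 0.71 with samples left out (0.71, called, without monolayer replicate 2). Between 3D-spheres and monolayer the count was 0 to 1 with samples left out, and the ranges were -0.39 to 1.02 for miR-193b and -0.34 to 1.01 for miR-365. A lone sample was then assumed to vary like the other groups.

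Between metastases and normal lung miR-193b turned to 1.47 and 1.17 with the 100 most abundant miRNAs and the miRNA total and ranged over -0.53 to 0.17 with samples left out, and miR-378 turned to 0.19 with the former. Changes of sign in differences that were never called were, for carcinoma against EMT-like areas with no scaling, the 100 most abundant miRNAs, the miRNA total and the higher background, -0.27, -0.17, -0.085 and -0.29 for miR-193b and -0.27, -0.16, -0.080 and -0.27 for miR-378 (-0.021 to 0.24 with samples left out). miR-193 gave 0.062 there with the higher background. For metastases against PT, miR-193b gave -0.38, -0.12 and -0.35 with no scaling, the mRNA controls and the higher background, miR-193 gave 0.073 with the last, and miR-378 ranged over -0.13 to 0.013 with samples left out. The cause was not tested.

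With the animal or culture number as a fixed replicate block, miR-365 differed by -0.35 between carcinoma and EMT-like areas (adjusted p = 0.955), miR-378 by 1.13 between 3D-spheres and monolayer (adjusted p = 0.303) and miR-193 by 0.048 between metastases and PT, and the pairing changed no call. It was not run for metastases against normal lung or cultures against PT, which share too few labels. Counts near the limit in cultures leave differences of low members undetectable at this depth.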
